A study of Oryza sativa with 24 samples.

Results

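Late embryogenesis abundant (LEA) genes, dehydrins included, and oil body protein genes were examined in rice scutella during callus induction. A gene was taken as a member when its annotation text named late embryogenesis, dehydrin, oleosin, caleosin or steroleosin, or when its gene name was that of a LEA, oleosin, RAB16, RAB21 or dehydrin gene. The rule itself uses no expression values, but it was set with earlier results of these data known. The rule found 53 of the 38866 annotated genes, of which 43 were LEA genes and 10 were oil body genes, and both lists are described apart. Of these, 38 LEA genes and 9 oil body genes had enough counts to be tested.

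LEA proteins are hydrophilic proteins that accumulate in the maturing embryo and in tissues that lose water. They are thought to protect proteins and membranes during drying, and many of their genes respond to abscisic acid (ABA). Dehydrins form one LEA group, and rice RAB16 genes are classical ABA-responsive members of it. Oil bodies are the triacylglycerol stores of the seed, and in cereals they fill cells of the scutellum, the organ of the embryo that lies against the endosperm. Oleosins coat the oil body surface and keep it from fusing, caleosins are calcium-binding oil body proteins, and steroleosins are sterol-binding dehydrogenases of the same surface.

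The study asked which genes auxin signalling controls when callus forms from the scutellum. Callus-inducing medium (CIM) is N6 medium with 2,4-D, a synthetic auxin. The 8 groups were wild-type (Nipponbare) on hormone-free N6 medium at 2 d, wild-type on CIM at 2, 5 and 7 d, and the same 4 conditions in 35Spro:OsMIR393b, a line of Nipponbare background in which the broadly active 35S promoter drives the microRNA gene OsMIR393b. This microRNA targets transcripts of TIR1/AFB auxin receptors. Each group held 3 libraries, each from scutella of 10 pooled seeds (mature embryo in the labels). The study calls the replicates biological, and the labels do not say whether they came from separate cultures, so p-values measure the spread between these libraries, which may be technical in part. The N6 control was sampled at 2 d alone, so at 5 and 7 d medium and culture time cannot be told apart.

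The libraries held 50341636 to 70796624 estimated counts. Each level is in CPM, that is counts after scaling to one library size, in the order of replicates 1, 2 and 3, and levels of different genes are compared only as FPKM, which divides by transcript length. A gene was called when the adjusted p of edgeR's quasi-likelihood test was under 0.05 and its change was over 1 on the log2 scale. Some libraries stood apart for the members. Replicate 3 of wild-type on N6 was the lowest of its group for OsLEA14 and OsLEA24, and replicate 3 of 35Spro:OsMIR393b at 5 d on CIM had 41.5 CPM summed over the oil body genes against a mean of 121 CPM in replicates 1 and 2. Replicate 1 of that group had 7064 CPM summed over the LEA genes against 13874 and 13823 CPM in the others. Because whole scutella were sequenced, fewer cells of a type and less RNA per cell cannot be told apart.

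Oil body genes rose on CIM in the wild-type. Their summed level was 33.3 ± 1.42 CPM on N6 medium, 115 ± 32.2 CPM at 2 d, 385 ± 111 CPM at 5 d and 434 ± 119 CPM at 7 d on CIM (SD, n = 3). In 35Spro:OsMIR393b the sum was 62.2 ± 18.9 CPM on N6 medium, 84.3 ± 33.1 CPM at 2 d, 94.6 ± 46.1 CPM at 5 d and 25.0 ± 7.64 CPM at 7 d (SD, n = 3). At 7 d the ranges of the genotypes were far apart, with 297 to 515 CPM in the wild-type and 16.6 to 31.6 CPM in 35Spro:OsMIR393b.

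**Figure D1:**
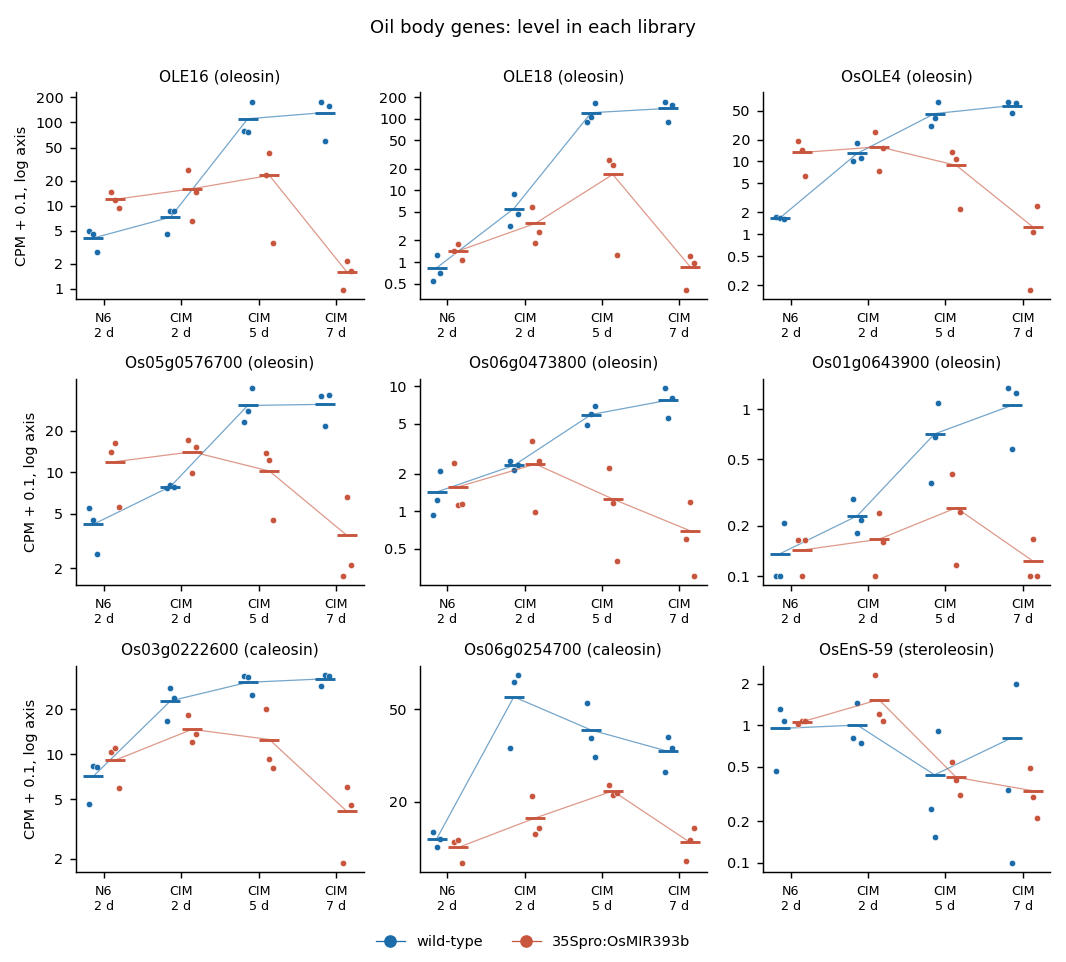
Level of each detected oil body gene in every library (CPM + 0.1 on a log axis, 1 point per library, bars and lines at group means) on N6 medium at 2 d and on CIM at 2, 5 and 7 d, for wild-type and 35Spro:OsMIR393b. OLE18, OLE16 and OsOLE4 climb in the wild-type and are at or below their N6 level in 35Spro:OsMIR393b at 7 d.

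Of the 10 oil body genes, 8 were higher and 0 were lower in the wild-type at 7 d on CIM than on N6 medium, beside 14.2% higher and 14.7% lower over all tested genes. For the lower direction, 0 genes also had an unadjusted p under 0.05 with edgeR, and DESeq2 and limma called 0. The median change of the tested oil body genes was 2.92 on the log2 scale, against 0.017 over all genes. The 8 genes were all 6 oleosins and both detected caleosins.

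OLE18, a major seed oleosin, had the largest rise. It was at 0.436, 1.15 and 0.603 CPM on N6 medium, 3.11, 8.65 and 4.65 CPM at 2 d, 88.9, 107 and 167 CPM at 5 d, and 171, 90.9 and 155 CPM at 7 d in the wild-type. No library on CIM overlapped those on N6 medium. The change at 7 d was 7.58 on the log2 scale (SE 0.91, edgeR adjusted p = 1.3e-06). In 35Spro:OsMIR393b, OLE18 stood at 1.33, 1.70 and 0.959 CPM on N6 medium, 26.1, 22.4 and 1.13 CPM at 5 d, and 0.314, 1.11 and 0.865 CPM at 7 d. Replicates 1 and 2 at 5 d were thus high and replicate 3 was within the N6 range, and at 7 d the groups overlapped. The change was 3.64 at 5 d (SE 0.77, edgeR adjusted p = 0.0021) and -0.79 at 7 d (SE 0.80, adjusted p = 0.45).

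OLE16, the other major rice seed oleosin, was at 4.85, 4.44 and 2.66 CPM on N6 medium and 177, 60.5 and 157 CPM at 7 d in the wild-type. Its 35Spro:OsMIR393b level was 14.7, 11.6 and 9.17 CPM on N6 medium and 0.886, 2.1 and 1.55 CPM at 7 d. In both genotypes the 7 d libraries were clear of the N6 libraries, above them in the wild-type and below them in 35Spro:OsMIR393b. The change was 5.04 (SE 0.74, edgeR adjusted p = 1.4e-05) in the wild-type and -2.96 (SE 0.71, adjusted p = 0.0021) in 35Spro:OsMIR393b, on the log2 scale.

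OsOLE4, annotated as similar to oleosin, moved in the same pair of directions. Its wild-type level was 1.61, 1.6 and 1.52 CPM on N6 medium, 9.96, 17.6 and 10.9 CPM at 2 d, and 65.7, 46.8 and 62.9 CPM at 7 d. Its level in 35Spro:OsMIR393b was 18.8, 14.4 and 6.26 CPM on N6 medium and 0.0738, 0.973 and 2.37 CPM at 7 d. Neither genotype's groups overlapped, and the wild-type was already called at 2 d (3.02, SE 0.72, edgeR adjusted p = 0.007). At 7 d the change was 5.21 (SE 0.79, edgeR adjusted p = 1.8e-05) in the wild-type and -3.53 (SE 0.75, adjusted p = 0.00077) in 35Spro:OsMIR393b. On N6 medium the 35Spro:OsMIR393b libraries were all above the wild-type libraries (log2 difference 3.06, SE 0.72, edgeR adjusted p = 0.014). This call was lost without wild-type N6 replicate 3 or 35Spro:OsMIR393b N6 replicate 1, where the difference was 2.72 to 2.98 (adjusted p 0.061 to 0.072).

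The 3 other oleosins rose in the wild-type as well. Os05g0576700 went from 5.39, 4.40 and 2.44 CPM on N6 medium to 35.4, 21.6 and 35.9 CPM at 7 d in the wild-type (log2 change 2.92, SE 0.52, edgeR adjusted p = 0.00011). In 35Spro:OsMIR393b its N6 libraries held 13.8, 16.2 and 5.44 CPM and its 7 d libraries 1.66, 6.49 and 2.00 CPM, which overlapped, with a fitted change of -1.80 (SE 0.50, edgeR adjusted p = 0.0069). Os06g0473800 reached 5.44 to 9.52 CPM in the wild-type at 7 d. Os01g0643900 reached 0.477 to 1.23 CPM there, from 0 in 2 of the 3 N6 libraries. Its change of 4.66 (SE 1.56, edgeR adjusted p = 0.018) was lost without N6 replicate 1 or 2 (4.09 to 4.10, adjusted p 0.059 to 0.060).

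Both detected caleosins rose in the wild-type. Os06g0254700 was at 14.7, 12.7 and 13.8 CPM on N6 medium and 33.9, 65.2 and 69.9 CPM at 2 d in the wild-type, and was at 26.6, 37.8 and 33.9 CPM at 7 d. Its 2 d libraries were all above the N6 libraries, and 2 of them were above every later library. The change was 2.03 at 2 d (SE 0.24, edgeR adjusted p = 1.3e-05) and 1.25 at 7 d (SE 0.23, adjusted p = 0.00018). In 35Spro:OsMIR393b it was at 13.4, 13.6 and 10.9 CPM on N6 medium, 23.6, 21.3 and 21.7 CPM at 5 d, and 11, 13.6 and 15.3 CPM at 7 d. The 5 d change of 0.81 (SE 0.23, edgeR adjusted p = 0.017) was under the fold limit, and the 7 d libraries overlapped the N6 libraries.

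Os03g0222600, annotated as similar to caleosin, was at 4.56, 8.29 and 8.16 CPM on N6 medium, 16.5, 27.6 and 23.6 CPM at 2 d, and 28.5, 33.7 and 33.0 CPM at 7 d in the wild-type. The gene was, in 35Spro:OsMIR393b, at 10.2, 11 and 5.85 CPM on N6 medium and 1.79, 5.94 and 4.47 CPM at 7 d. The wild-type groups did not overlap (7 d change 2.18, SE 0.39, edgeR adjusted p = 0.00011), and in 35Spro:OsMIR393b they met at their edges (-1.14, SE 0.39, adjusted p = 0.021). The second call was lost without N6 replicate 1, N6 replicate 2 or 7 d replicate 1 (-1.05 to -0.79, adjusted p 0.062 to 0.10). The third caleosin, Os06g0254600, lies 7036 bp from Os06g0254700 on chromosome 6 and had a count of 0 in all 24 libraries. The steroleosin OsEnS-59 was at most 2.22 CPM in any library and passed the test nowhere.

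In 35Spro:OsMIR393b, 0 oil body genes were higher and 4 were lower at 7 d than on N6 medium (background 10% higher and 12.5% lower). The 4 lower genes were OLE16, OsOLE4, Os05g0576700 and Os03g0222600. For the higher direction, 0 oil body genes had an unadjusted p under 0.05 with edgeR, and DESeq2 and limma called 0.

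For each gene the genotypes were compared by the wild-type change minus the change in 35Spro:OsMIR393b. At 7 d this difference was positive and called for 8 oil body genes and negative for 0 (background 16.1% positive and 15.5% negative). The 8 genes were the 6 oleosins and both detected caleosins. It was 8.74 for OsOLE4 (SE 1.08, edgeR adjusted p = 3.5e-06), 8.37 for OLE18 (SE 1.16, adjusted p = 1.2e-05), 8.01 for OLE16 (SE 1.02, adjusted p = 4.8e-06) and 1.18 for Os06g0254700 (SE 0.33, adjusted p = 0.0063) on the log2 scale.

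Per transcript length, OLE16 and OLE18 led the oil body genes in the wild-type at 7 d, with means of 182 and 175 FPKM. Their libraries overlapped (84.1 to 245 and 115 to 217 FPKM), so no order between them can be given, and OsOLE4, with a mean of 104 FPKM (83.5 to 117), overlapped both. Os03g0222600 at 37.6 FPKM (33.9 to 40.2), Os06g0254700 at 36.7 FPKM (29.9 to 42.6) and Os05g0576700 at 28.6 FPKM (20.1 to 32.9) lay below these 3, and neighbours among them overlapped as well. On N6 medium the caleosin Os06g0254700 led in the wild-type with 12.7 FPKM, and it led again in 35Spro:OsMIR393b at 7 d with 9.95 FPKM.

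LEA genes also rose in the wild-type. Of the 43 LEA genes, 20 were higher and 3 were lower at 7 d on CIM, beside the background of 14.2% and 14.7%. Their median change was 2.28 on the log2 scale, against 0.017 over all genes. In 35Spro:OsMIR393b, 4 were higher and 15 were lower at 7 d (background 10% and 12.5%), with a median of -1.56 against -0.023. Both 7 d comparisons use different libraries, and each has its own N6 control.

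**Figure D2:**
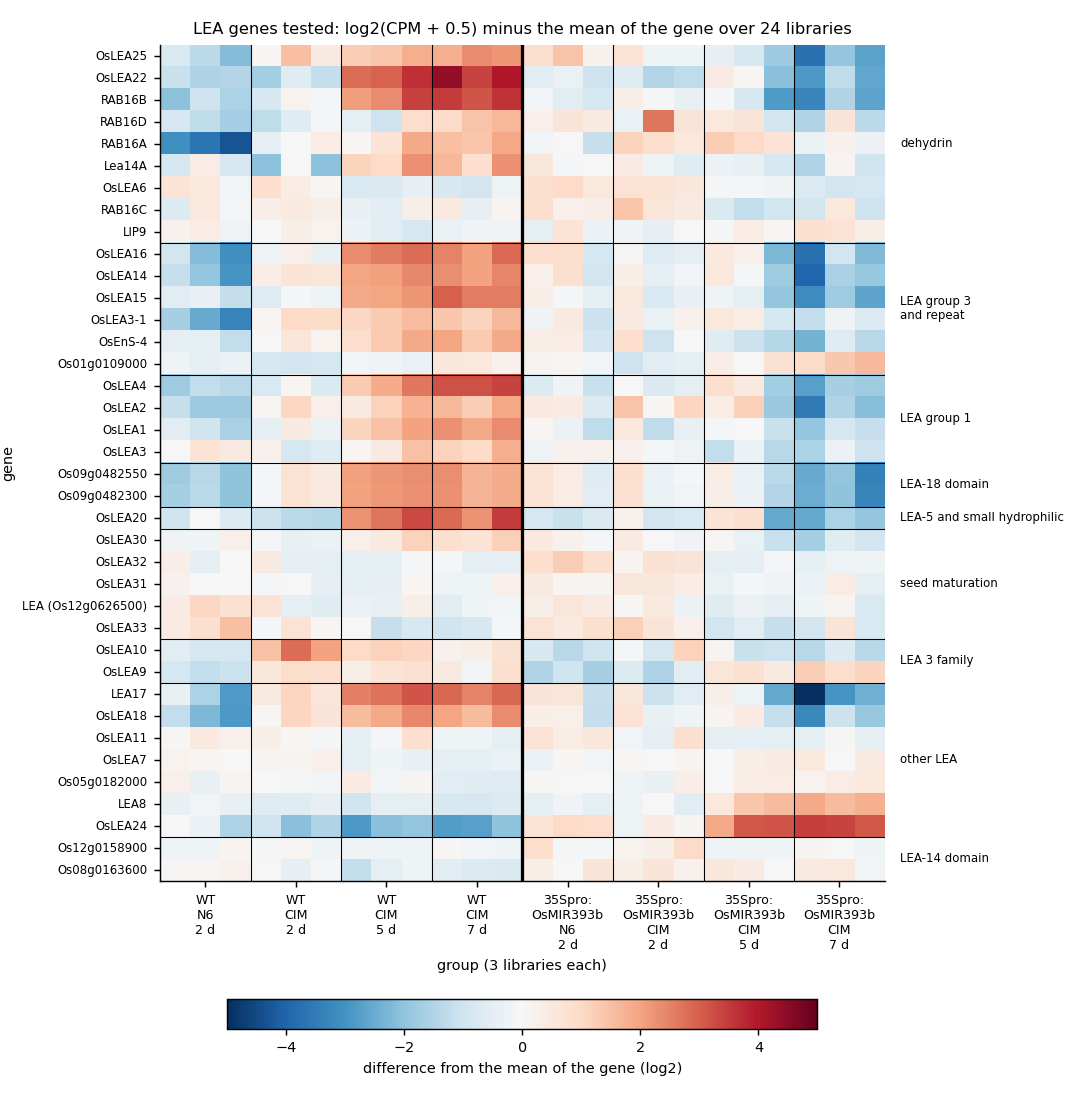
Heatmap of the 38 tested LEA genes (rows, by LEA group) in the 24 libraries (columns, by group), coloured by log2(CPM + 0.5) minus the gene's mean over all libraries. High values form a block in wild-type libraries of 5 and 7 d, and OsLEA24 and LEA8 are high in 35Spro:OsMIR393b at 5 and 7 d.

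**Figure D3:**
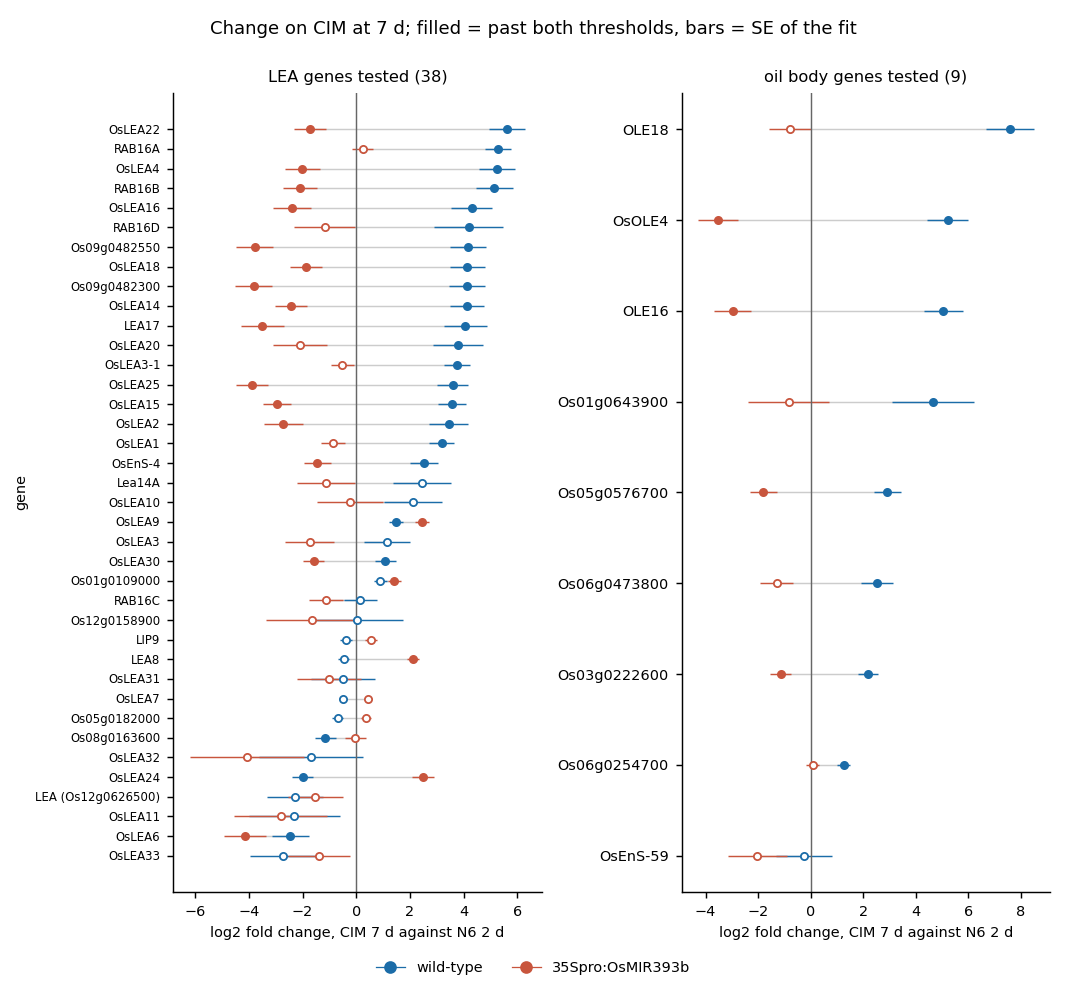
Log2 change from N6 medium to 7 d on CIM (x axis) of each tested LEA gene and oil body gene (rows) in wild-type and 35Spro:OsMIR393b, with the SE of the fit as bars and filled points for called genes. OLE18, at the top of the oil body genes, has 7.58 in the wild-type and -0.79 in 35Spro:OsMIR393b, and OsLEA24 has -1.99 and 2.48.

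Dehydrins gave 5 higher and 1 lower of 9 in the wild-type at 7 d (background 14.2% and 14.7%). In 35Spro:OsMIR393b they gave 0 higher and 4 lower (background 10% and 12.5%). RAB16A, a water stress and ABA responsive dehydrin gene, was at 12.8, 8.47 and 5.13 CPM on N6 medium, 81.2, 110 and 143 CPM at 2 d, 115, 179 and 409 CPM at 5 d, and 319, 289 and 427 CPM at 7 d in the wild-type. All CIM libraries were above the N6 libraries, and the 7 d change was 5.29 (SE 0.48, edgeR adjusted p = 3.9e-08). In 35Spro:OsMIR393b, RAB16A already stood at 99.8, 110 and 49.2 CPM on N6 medium, above every wild-type N6 library (difference 3.29, SE 0.43, edgeR adjusted p = 0.00021). It was at 243, 206 and 162 CPM at 2 d, 267, 213 and 179 CPM at 5 d, and 87.0, 129 and 89.5 CPM at 7 d. The 2 d libraries were above the N6 libraries but the change of 1.23 did not pass the test (SE 0.40, edgeR adjusted p = 0.12), and the 7 d libraries overlapped the N6 libraries (0.24, SE 0.40, adjusted p = 0.66).

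RAB16B, its neighbour on chromosome 11, was at 1.92, 4.44 and 2.86 CPM on N6 medium and 115, 89.3 and 124 CPM at 7 d in the wild-type (5.15, SE 0.69, edgeR adjusted p = 4.7e-06). In 35Spro:OsMIR393b it was at 8.76, 6.56 and 5.04 CPM on N6 medium and 0.535, 3.10 and 1.10 CPM at 7 d. The groups did not overlap in either genotype. The fall of 2.09 on the log2 scale (edgeR adjusted p = 0.011) was lost without 7 d replicate 1, where the change was -1.68 (adjusted p = 0.055).

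The RAB16 genes lie in 1 cluster on the minus strand of chromosome 11 (IRGSP-1.0). RAB16D spans 15320288 to 15321526, RAB16C 15327769 to 15328657, RAB16B 15336192 to 15337158 and RAB16A 15342877 to 15343671, with gaps of 6242, 7534 and 5718 bp. These 4 near copies could share reads. Their values still differed: RAB16D reached 2.63, 3.95 and 4.66 CPM in the wild-type at 7 d, and RAB16C was at 1.71, 0.687 and 1.25 CPM there, within its N6 range of 0.494 to 1.81 CPM. RAB16D was called (4.19, SE 1.29, edgeR adjusted p = 0.011) and RAB16C was not (0.15, SE 0.62, adjusted p = 0.86).

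OsLEA22, annotated as similar to the dehydrin Rab25, was at 2.88, 2.06 and 2.18 CPM on N6 medium, 1.79, 4.34 and 2.76 CPM at 2 d, 51.4, 55.9 and 93.0 CPM at 5 d, and 157, 76.1 and 118 CPM at 7 d in the wild-type. It overlapped its N6 range at 2 d and was far above it from 5 d (7 d change 5.62, SE 0.67, edgeR adjusted p = 1.1e-06). OsLEA25, annotated as similar to the dehydrin DHN1, passed the test already at 2 d, a call that was lost without 2 d replicate 2 (2.23, and 1.68 without it). It was at 6.5, 4.40 and 2.20 CPM on N6 medium, 11.9, 33.7 and 16.1 CPM at 2 d, and 41.8, 60.6 and 55.1 CPM at 7 d in the wild-type, with no overlap (7 d change 3.59, SE 0.58, edgeR adjusted p = 3.6e-05). Its 35Spro:OsMIR393b libraries held 20.6, 31.5 and 13.4 CPM on N6 medium, and 0.406, 2.67 and 1.38 CPM at 7 d, again with no overlap (-3.87, SE 0.60, edgeR adjusted p = 3.7e-05).

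OsLEA6 was the dehydrin that fell in the wild-type, from 1.10, 0.945 and 0.402 CPM on N6 medium to 0.0661, 0.0349 and 0.341 CPM at 7 d (-2.46, SE 0.70, edgeR adjusted p = 0.006). It fell in 35Spro:OsMIR393b too, from 0.926 to 1.44 CPM on N6 medium to 0.0336 to 0.129 CPM at 7 d. LIP9, a cold and drought responsive dehydrin, was at 120 to 178 CPM in the wild-type on N6 medium and 110 to 123 CPM at 7 d, and was called in no comparison.

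The LEA group 3 and repeat genes gave 5 higher and 0 lower of 6 in the wild-type at 7 d (background 14.2% and 14.7%). In 35Spro:OsMIR393b they gave 1 higher and 4 lower (background 10% and 12.5%). OsLEA3-1, a drought-responsive group 3 LEA gene, was at 101, 56.9 and 31.8 CPM on N6 medium, 352, 650 and 622 CPM at 2 d, 676, 813 and 945 CPM at 5 d, and 829, 714 and 1015 CPM at 7 d in the wild-type. Every CIM library was above the N6 libraries (7 d change 3.75, SE 0.47, edgeR adjusted p = 2.4e-06). In 35Spro:OsMIR393b it was at 286, 455 and 153 CPM on N6 medium, above the wild-type there, and at 142, 281 and 201 CPM at 7 d, which overlapped (-0.52, SE 0.43, edgeR adjusted p = 0.34).

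OsLEA14 was at 50.9, 29.5 and 14.2 CPM on N6 medium, 145, 184 and 174 CPM at 2 d, and 563, 463 and 615 CPM at 7 d in the wild-type. For 35Spro:OsMIR393b the levels were 134, 199 and 59.9 CPM on N6 medium, 162, 110 and 32.6 CPM at 5 d, and 6.79, 36.0 and 29.9 CPM at 7 d. The 7 d libraries did not overlap the N6 libraries in either genotype (4.12, SE 0.63, edgeR adjusted p = 2.2e-05, and -2.43, SE 0.59, adjusted p = 0.0023). OsLEA16, of the same repeat family, went from 25.4, 10.3 and 5.35 CPM to 269, 196 and 348 CPM in the wild-type, and from 87.4, 88.9 and 25.9 CPM to 3.17, 25.5 and 10 CPM in 35Spro:OsMIR393b. Its changes were 4.31 (SE 0.76, edgeR adjusted p = 0.0001) and -2.38 (SE 0.70, adjusted p = 0.0097), with no overlap in either genotype. OsLEA15 and OsEnS-4 moved in the same directions (3.55 and 2.52 in the wild-type, -2.95 and -1.45 in 35Spro:OsMIR393b). Os01g0109000, at most 9.86 CPM in any library, was the member of this group that rose in 35Spro:OsMIR393b (1.42, SE 0.23, edgeR adjusted p = 6.7e-05).

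**Figure D4:**
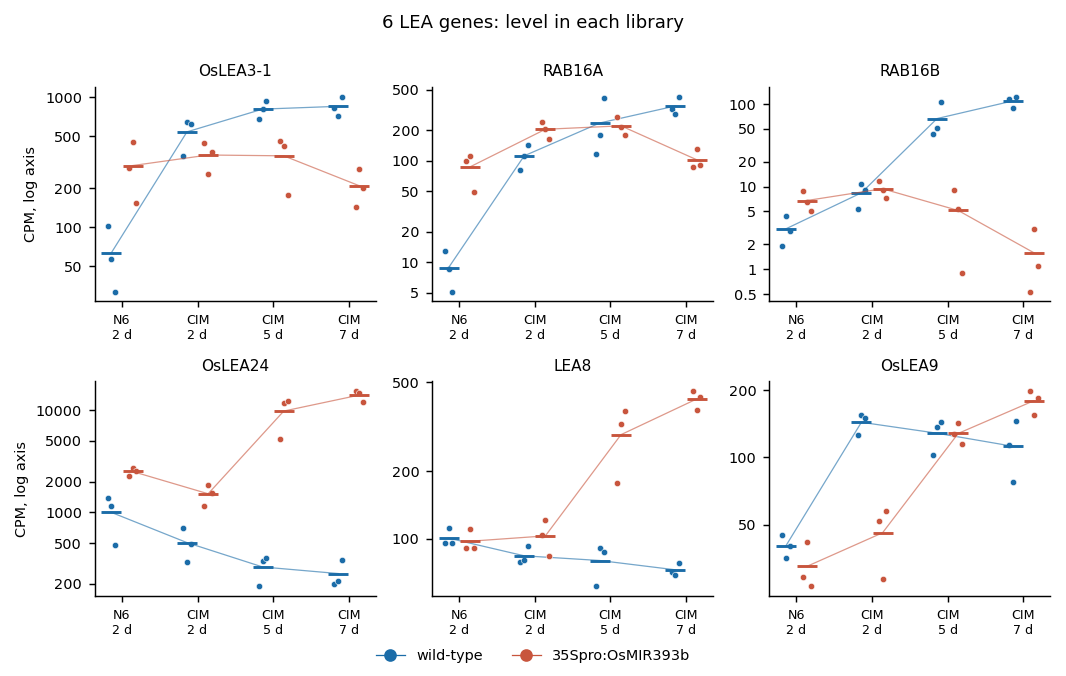
CPM (log axis) of 6 LEA genes in every library by medium, day and genotype, with 1 point per library and bars and lines at group means. OsLEA3-1, RAB16A and RAB16B climb in the wild-type, OsLEA24 and LEA8 climb in 35Spro:OsMIR393b alone, and OsLEA9 is higher at 7 d than on N6 medium in both.

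Of the 4 group 1 LEA genes, 3 rose in the wild-type at 7 d (background 14.2%) and 2 fell in 35Spro:OsMIR393b (background 12.5%). OsLEA1 was at 50.4, 36.5 and 23.0 CPM on N6 medium and 354, 269 and 370 CPM at 7 d in the wild-type (3.18, SE 0.48, edgeR adjusted p = 1.8e-05). Its 35Spro:OsMIR393b libraries held 76.4, 58.3 and 29.3 CPM on N6 medium and 18.6, 39.5 and 32.4 CPM at 7 d, which overlapped (-0.86, SE 0.45, edgeR adjusted p = 0.13). OsLEA4 went from 0.698 to 1.25 CPM on N6 medium to 36.1 to 41.6 CPM at 7 d in the wild-type (5.25, SE 0.68, edgeR adjusted p = 3.2e-06), the largest rise of the group. OsLEA2 rose as well (3.45, SE 0.73, edgeR adjusted p = 0.00057), and OsLEA3 was at most 4.66 CPM and was called nowhere.

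LEA17, an abiotic stress tolerance LEA gene, was at 27.7, 11.9 and 4.72 CPM on N6 medium and 265, 207 and 267 CPM at 7 d in the wild-type. It was at 56.4, 56.2 and 16.0 CPM on N6 medium and 0.591, 4.23 and 6.46 CPM at 7 d in 35Spro:OsMIR393b. The groups were clear of each other in both genotypes (4.06, SE 0.81, edgeR adjusted p = 0.00032, and -3.51, SE 0.80, adjusted p = 0.0015). OsLEA18 showed the same directions, at 1.53 to 5.97 CPM on N6 medium and 44.4 to 76.1 CPM at 7 d in the wild-type (4.14, SE 0.65, edgeR adjusted p = 2.6e-05).

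The LEA-18 domain genes Os09g0482300 and Os09g0482550 rose from 0.742 to 1.42 CPM and 0.819 to 1.52 CPM on N6 medium to 15.4 to 23.6 CPM and 16.4 to 25.6 CPM at 7 d in the wild-type. They lie at 18522513 to 18524680 and 18533972 to 18536139 of chromosome 9, and the ratio of their counts was 0.96 to 1.19 in the 22 libraries with at least 40 counts of Os09g0482300. They may share reads, so their values are uncertain and are not independent. The small hydrophilic seed protein gene OsLEA20 reached 13.4 to 32.4 CPM at 7 d from 0.974 to 2.45 CPM (3.80, SE 0.93, edgeR adjusted p = 0.0021). Of the 5 seed maturation genes, OsLEA30 was called higher in the wild-type at 7 d (background 14.2%). Its change was 1.08 (SE 0.39, edgeR adjusted p = 0.026). This call was lost without N6 replicate 1, N6 replicate 2 or 7 d replicate 3 (0.86 to 0.99, adjusted p 0.080 to 0.11).

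OsLEA24, annotated as similar to LIP5, ran opposite to the LEA genes above. In the wild-type it was at 1376, 1141 and 482 CPM on N6 medium, 701, 326 and 489 CPM at 2 d, 189, 331 and 357 CPM at 5 d, and 200.4, 212 and 343 CPM at 7 d. In 35Spro:OsMIR393b it was at 2267, 2708 and 2559 CPM on N6 medium, 1163, 1852 and 1543 CPM at 2 d, 5164, 11871 and 12333 CPM at 5 d, and 15308, 14691 and 12122 CPM at 7 d. The 7 d libraries did not overlap the N6 libraries in either genotype, below them in the wild-type and above them in 35Spro:OsMIR393b. The changes were -1.99 (SE 0.39, edgeR adjusted p = 0.00027) and 2.48 (SE 0.40, adjusted p = 5.1e-05), and they differed by -4.47 (SE 0.55, adjusted p = 3.6e-06). At 7 d this 1 gene took 0.969 to 1.28% of all counts in 35Spro:OsMIR393b and 0.0246 to 0.0416% in the wild-type.

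The summed LEA level therefore turned on OsLEA24. With it, the sum went from 1813 ± 607 to 3925 ± 653 CPM in the wild-type and from 3842 ± 556 to 15631 ± 1694 CPM in 35Spro:OsMIR393b from N6 medium to 7 d (SD, n = 3). Without it, the sum went from 814 ± 144 to 3673 ± 589 CPM and from 1331 ± 437 to 1591 ± 21.2 CPM (SD, n = 3).

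**Figure D5:**
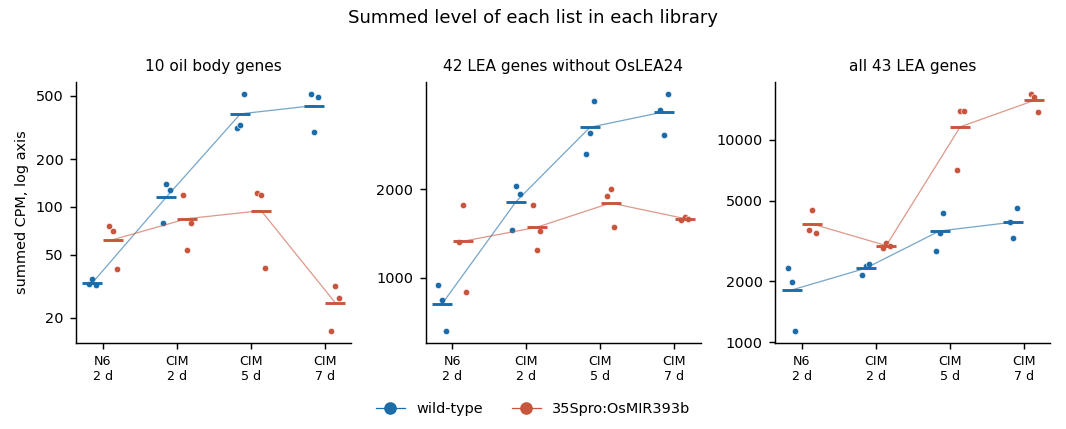
Summed CPM of the oil body genes, of the LEA genes and of the LEA genes without OsLEA24 in every library (log axis, points are libraries, lines join group means) by medium, day and genotype. The oil body sum and the LEA sum without OsLEA24 rise in the wild-type, and the full LEA sum is highest in 35Spro:OsMIR393b at 7 d.

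LEA8, an atypical LEA gene, also rose in 35Spro:OsMIR393b, from 90.5, 111 and 90.7 CPM on N6 medium to 178, 326 and 370 CPM at 5 d and 456, 377 and 429 CPM at 7 d. In the wild-type it was at 95.4, 111 and 95.2 CPM and at 70.9, 68.9 and 77.9 CPM on N6 medium and at 7 d. The rise of 2.11 (SE 0.21, edgeR adjusted p = 3e-07) stood beside a wild-type change of -0.47 (SE 0.20, adjusted p = 0.060). OsLEA9, of the LEA 3 family, rose in both genotypes, from 45.0, 35.5 and 40 CPM to 114, 77.5 and 145 CPM in the wild-type and from 29.3, 41.9 and 26.6 CPM to 198, 155 and 185 CPM in 35Spro:OsMIR393b. The changes were 1.48 (SE 0.24, edgeR adjusted p = 4.6e-05) and 2.46 (SE 0.25, adjusted p = 4.1e-07), and their difference of -0.98 was under the fold limit (SE 0.34, adjusted p = 0.023).

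OsLEA7, a LEA 2 family gene, was at 201 to 404 CPM in all libraries and was called in no comparison. Of the 6 LEA-14 domain genes, Os02g0507900, Os06g0119200 and Os06g0119900 had a count of 0 in all 24 libraries. Os04g0628300 and Os12g0158900 were at most 0.356 and 0.624 CPM, and Os08g0163600 was the third gene that was lower in the wild-type at 7 d, beside OsLEA6 and OsLEA24. Its change was -1.15 (SE 0.40, edgeR adjusted p = 0.021), and the call was lost without wild-type N6 replicate 3 or 7 d replicate 2 or 3 (-1.14 to -1.10, adjusted p 0.051 to 0.060). Other members called in no comparison were Lea14A, OsLEA31, OsLEA32, OsLEA33 and the gene named LEA (Os12g0626500). OsLEA12 was not tested because of its low counts.

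The wild-type change from N6 medium to 7 d minus that of 35Spro:OsMIR393b was called positive for 19 LEA genes and negative for 3, beside 16.1% and 15.5% over all genes. These differences also hold the gap between the genotypes on N6 medium, so they are not differences in level at 7 d. For RAB16A and OsLEA3-1 the mean wild-type level at 7 d was 3.38 and 4.10 times that of 35Spro:OsMIR393b. Among genes with a group mean of at least 100 CPM, the positive differences were 7.57 for LEA17, 7.36 for OsLEA22, 7.24 for RAB16B, 6.69 for OsLEA16, 6.55 for OsLEA14, 5.05 for RAB16A, 4.27 for OsLEA3-1 and 4.03 for OsLEA1 on the log2 scale. Over all tested LEA genes, the negative ones were -4.47 for OsLEA24, -2.58 for LEA8 and -1.06 for Os05g0182000, whose highest group mean was 9.63 CPM. The call of Os05g0182000 was lost without wild-type N6 replicate 1 or 35Spro:OsMIR393b 7 d replicate 3, where the value was -0.96 to -0.92 (edgeR adjusted p 0.015).

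Per transcript length, OsLEA24 led the LEA genes in the wild-type on N6 medium with 1591 FPKM, followed by OsLEA7 at 215, LIP9 at 117 and LEA8 at 87.9 FPKM. The libraries of LIP9 and LEA8 overlapped there. At 7 d on CIM the wild-type means were 794 for OsLEA3-1, 647 for OsLEA14, 579 for RAB16A, 556 for OsLEA1, 483 for OsLEA24 and 229 for LEA17 in FPKM. Neighbours among the first 5 overlapped (670 to 937, 551 to 720, 488 to 711, 455 to 615 and 387 to 653 FPKM), so no order of neighbours among them can be given, and the LEA17 libraries (194 to 248 FPKM) lay below them all. In 35Spro:OsMIR393b at 7 d the means were 18021 for OsLEA24, 296 for LEA8, 236 for OsLEA9 and 206 for OsLEA7 in FPKM, and the libraries of OsLEA9 and OsLEA7 overlapped.

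The comparisons at 2 and 5 d give the time course. At 2 d in the wild-type, 10 LEA genes and 4 oil body genes were higher and 0 of either were lower (background 4.3% higher and 4.01% lower). For the lower direction, edgeR gave 2 LEA genes and 0 oil body genes at an unadjusted p under 0.05, DESeq2 called 1 LEA gene and limma called 0. At 5 d, 19 LEA genes and 8 oil body genes were higher and 3 LEA genes and 0 oil body genes were lower (background 12.6% and 14.6%). These comparisons share the N6 libraries, so the changes at 2, 5 and 7 d are set side by side. They were 3.66, 4.73 and 5.29 for RAB16A, 3.10, 3.68 and 3.75 for OsLEA3-1, and 1.84, 1.67 and 1.48 for OsLEA9, all called. They were 0.31, 4.81 and 5.62 for OsLEA22 and 0.85, 4.79 and 5.04 for OLE16, of which the 2 d values did not pass. The 2 d call of OLE18 (2.90, SE 0.78, edgeR adjusted p = 0.015) was lost without N6 replicate 1, N6 replicate 3 or 2 d replicate 2 (2.41 to 2.74, adjusted p 0.058 to 0.068).

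The 2 d calls of OsLEA25 and OsLEA2 were each lost without 2 d replicate 2, and that of OsLEA2 also without N6 replicate 2 or 3. Their values were then 1.68 for OsLEA25 (edgeR adjusted p = 0.058) and 1.93 to 2.17 for OsLEA2 (adjusted p 0.10 to 0.11). OsLEA10, a LEA 3 family gene, was higher at 2 and 5 d, at 3.09, 8.57 and 4.71 CPM and at 2.06, 2.41 and 2.15 CPM against 0.232 to 0.407 CPM on N6 medium. Without N6 replicate 2 or 3 or 2 d replicate 2, its 2 d change was 3.74 to 4.08 (edgeR adjusted p 0.061 to 0.069). Leaving out any one N6 or 5 d replicate ended its 5 d call (2.74 to 3.24, adjusted p 0.058 to 0.10).

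In 35Spro:OsMIR393b at 2 d, 0 LEA genes and 0 oil body genes were called with edgeR (background 1.22% higher and 0.37% lower). At an unadjusted p under 0.05, 2 LEA genes were higher, 1 was lower, and 0 oil body genes moved. DESeq2 called 1 LEA gene higher and limma called 0. At 2 d the difference between the genotypes in their change from N6 medium was called for OsLEA3-1 and Os06g0254700 (background 0.252% positive and 0.283% negative). Leaving out any one of 14 and 8 of the 24 libraries, respectively, ended these calls (2.38 to 3.0, edgeR adjusted p 0.051 to 0.13, and 1.42 to 1.56, adjusted p 0.066 to 0.10).

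At 5 d in 35Spro:OsMIR393b, 4 LEA genes were higher, 3 were lower and 1 oil body gene, OLE18, was higher (background 6.35% and 4.21%). The higher LEA genes were OsLEA9, OsLEA24, LEA8 and RAB16A, and the lower ones were OsLEA11, OsLEA25 and RAB16C. For RAB16A the call was lost without N6 replicate 3 or 5 d replicate 1 (1.07 to 1.18, edgeR adjusted p 0.054 to 0.098). For OsLEA25 it was lost without N6 replicate 2 or 5 d replicate 3 (-1.57 to -1.53, adjusted p 0.073 to 0.074), and for RAB16C without 5 d replicate 2 (-2.1, adjusted p = 0.066). OsLEA11 was at 0.639, 0.409 and 0.536 CPM on N6 medium and had a count of 0 in all 3 libraries at 5 d, at least 2.69-fold lower against a floor of 12 counts per library, and each 5 d library decided this call (adjusted p 0.057 to 0.077 without one).

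The difference between the genotypes in their change from N6 medium to 5 d was positive for 18 LEA genes and 6 oil body genes. It was negative for 2 LEA genes and 0 oil body genes (background 6.5% and 11.8%). For OLE18 it was 3.74 at 5 d (SE 1.06, edgeR adjusted p = 0.011), against 8.37 at 7 d. The negative ones were -3.74 for OsLEA24 (SE 0.55, adjusted p = 5.5e-05) and -1.91 for LEA8 (SE 0.29, adjusted p = 7.3e-05).

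At 7 d in 35Spro:OsMIR393b some falls rested on single libraries. Replicate 1 at 7 d was the lowest for many members, and without it 10 LEA genes were lower in place of 15. Without replicate 2 the number was 19. Over all annotated genes, replicate 1 also had the most genes at 0 of its group (11549, against 10435 and 11006 in replicates 2 and 3). The shares over all genes without these libraries are not given here, so these numbers cannot be set against a background. The falls of OsLEA22 (-1.73, edgeR adjusted p = 0.025), OsLEA18 (-1.88, adjusted p = 0.015) and OsLEA4 (-2.01, adjusted p = 0.016) were all lost without replicate 1. OsLEA22 also lost the call without 7 d replicate 3 or N6 replicate 1 or 2, OsLEA18 without N6 replicate 1, and OsLEA4 without N6 replicate 2. The values without these libraries were -1.70 to -1.36 for OsLEA22 (edgeR adjusted p 0.052 to 0.11), -1.64 to -1.45 for OsLEA18 (adjusted p 0.053 to 0.065) and -1.66 to -1.55 for OsLEA4 (adjusted p 0.065 to 0.071).

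On N6 medium, 8 LEA genes and 1 oil body gene were higher in 35Spro:OsMIR393b than in the wild-type, and 0 were lower (background 1.79% higher and 1.18% lower). For the lower direction, 0 members had an unadjusted p under 0.05 with edgeR and 0 were called by DESeq2 or limma. The higher genes were RAB16A, OsLEA3-1, OsLEA14, OsLEA24, OsLEA18, OsLEA25, the LEA-18 domain pair and OsOLE4. RAB16A and OsLEA3-1 (2.23, SE 0.45, edgeR adjusted p = 0.0054) were called whichever library was left out. Without wild-type N6 replicate 3, 2 LEA genes and 0 oil body genes were called, without wild-type N6 replicate 2, 4 LEA genes, without 35Spro:OsMIR393b N6 replicate 1, 3 and 0, and without its N6 replicate 2, 2 LEA genes. Leaving out wild-type CIM libraries (5 d replicate 2 or 3, or 7 d replicate 1) gave 5 LEA genes. Leaving out 35Spro:OsMIR393b N6 replicate 3, 5 d replicate 3 or 7 d replicate 2 gave 2 oil body genes. The shares over all genes with a library left out are not given here, so these numbers have no background beside them.

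Markers of other seed and seedling tissues moved with these groups. The 11 genes whose annotation names chlorophyll a/b binding or the Rubisco small chain, taken as markers of green shoot, include GHD7, a heading date regulator that is not a photosynthesis protein. They had sums of 19.0 to 42.3 CPM (wild-type) and 178 to 288 CPM (35Spro:OsMIR393b) on N6 medium, and of 7.35 to 9.60 and 11.5 to 23.4 CPM at 7 d, with 2 or 3 of the 11 at 0 in each of these groups. The 50 genes whose annotation names glutelin or prolamin, taken as markers of endosperm, include ESP2 and GLUP3. Those process storage proteins and are not storage proteins themselves. The 50 summed to 1683 to 2217 CPM and 1872 to 2016 CPM on N6 medium, and to 733 to 936 and 1063 to 1338 CPM at 7 d, with 7, 6, 31 and 10 of the 50 at 0. The 2 root genes RCc2 and RCc3, both detected, summed to 95.8 to 206 CPM on N6 medium and 515 to 759 CPM at 2 d in the wild-type, and to 16.2 to 32.3 CPM at 7 d. In 35Spro:OsMIR393b they summed to 44.2 to 90.8 CPM on N6 medium, 201 to 270 CPM at 2 d and 41.8 to 45.3 CPM at 7 d. The 13 genes annotated with alpha-amylase, an enzyme that the germinating scutellum secretes, include GAMYB and GASR1. Those are annotated with control of its expression and are not alpha-amylases. The 13 summed to 7436 to 9277 CPM and 19727 to 22984 CPM on N6 medium, and to 1687 to 2753 and 24858 to 32738 CPM at 7 d. At 7 d, 4 were higher and 6 lower in the wild-type (background 14.2% and 14.7%). In 35Spro:OsMIR393b 0 were higher and 5 lower (background 10% and 12.5%). The part of these tissues in the LEA and oil body values was not tested.

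Regulators of seed maturation were read alongside. OsVP1, the rice ortholog of maize Viviparous1, a B3 factor that acts in ABA responses of the embryo, was at 26.9, 30.5 and 28.4 CPM on N6 medium and 141, 104 and 131 CPM at 7 d in the wild-type. In 35Spro:OsMIR393b it went from 52.8, 41.4 and 28.7 CPM to 3.41, 6.68 and 6.86 CPM. The groups did not overlap in either genotype, and the changes of 2.13 and -2.86 differed by 4.99 (SE 0.47, edgeR adjusted p = 3e-07). OsLFL1, another B3 factor of the LEC2 and FUS3 type, rose from 0.218 to 0.465 CPM to 23.8 to 30.4 CPM in the wild-type (6.26, SE 0.82, edgeR adjusted p = 3.6e-06), and was at 0, 0 and 0.202 CPM in 35Spro:OsMIR393b at 7 d. OsLEC1, a histone-fold factor, had a count of 0 in all wild-type N6 libraries and was at 14.2, 13.8 and 17.0 CPM at 7 d. In 35Spro:OsMIR393b OsLEC1 had a count of 0 in all N6 libraries and was at 2.85, 0.479 and 0.0709 CPM at 5 d and 0.0554, 0 and 0.0736 CPM at 7 d. Of these 3 regulators, OsLFL1 and OsLEC1 were called higher in 35Spro:OsMIR393b at 5 d (background 6.35%), where OsLFL1 was at 3.58, 1.45 and 0.461 CPM (4.82, SE 0.91, edgeR adjusted p = 0.00084).

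Of 11 genes of oil synthesis and droplet formation, 8 were tested. In wild-type scutella 4 rose and 1 fell by 7 d (background 14.2% and 14.7%), and in 35Spro:OsMIR393b 0 rose and 1 fell (background 10% and 12.5%). The largest rise was that of Os01g0728700, annotated as a DUF1264 family protein of unknown function, from 0.233, 0.991 and 0.371 CPM to 19.6, 14.9 and 20.1 CPM. Diacylglycerol acyltransferases act at the last step of triacylglycerol synthesis, and several genes of this list carry that annotation. Of these, OsDGAT did not pass in the wild-type (-0.08, SE 0.12, edgeR adjusted p = 0.63), and the others are given only within the counts above. Those counts do not separate the acyltransferases from the other genes of the list. Of 4 raffinose synthesis genes, all tested, 2 rose and 1 fell in wild-type scutella by 7 d, beside the same backgrounds, while in 35Spro:OsMIR393b 0 rose and 1 fell. OsGolS1, a galactinol synthase gene, went from 4.05 to 6.61 CPM to 27.9 to 35.6 CPM (2.46, SE 0.40, edgeR adjusted p = 4.4e-05). Of 4 seed proteins that the rule did not take, 1 rose and 1 fell in the wild-type by 7 d (background 14.2% and 14.7%). In 35Spro:OsMIR393b 2 rose and 0 fell (background 10% and 12.5%). Among them, Os05g0550250 was at 8.23, 6.26 and 7.31 CPM on N6 medium and 0.291, 0.512 and 0.177 CPM at 7 d in the wild-type. It was at 4.78, 3.60 and 3.85 CPM and at 99.1, 46.0 and 52.4 CPM in 35Spro:OsMIR393b. Its direction was that of OsLEA24 (difference -8.47, SE 0.97, edgeR adjusted p = 1.7e-06).

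The genes whose levels over the 24 libraries were most like those of the leading members were listed by Pearson's r of log2 CPM, as a description, since libraries of 1 group share their condition. For OLE18 they were OsEnS-68, annotated as similar to an embryo-specific protein (0.975), the cupin gene Os03g0197300 (0.971) and the peroxiredoxin gene Os1-CysPrxA (0.966). For OLE16 they were OsEnS-68 (0.955), OsEnS-127 (0.952) and the member OsLEA4 (0.950). For OsLEA24 they were the lectin domain gene Os07g0683900 (0.995), Os03g0840200 (0.987) and OsMT2b (0.986), and for OsLEA3-1 they were Os04g0386700 (0.956), Os05g0468800 (0.954) and Os05g0474600 (0.928).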

How the data were processed

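Poly(A) RNA of 24 samples (8 groups of 3, taken from the submitters' labels) was sequenced. The authors deposited 1 table of estimated counts and FPKM per gene. Per the submitters' processing notes, the tools were Trimmomatic 0.36, HISAT2 2.1.0 and StringTie 1.3.4d, and the build was IRGSP-1.0. The deposited estimated counts are whole numbers in which about 4 counts stand for 1 fragment, since 641.5 genes per library (median) hold a count of 4, against 202.5 with 3 and 146 with 5. The table gives FPKM as the authors' values per transcript length, and 0 counts are listed there at a small constant. The study's methods name UMI-tools as a step against amplification noise. Whether the deposited counts were made after it is not given in the sources used here.

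Libraries were scaled with TMM factors and genes with low counts were removed with edgeR's filterByExpr, which left 29710 of 38866 genes. The counts were fitted over all 8 groups with edgeR 4.0.16 (quasi-likelihood F-test, 16 residual degrees of freedom, R 4.3.3), with Benjamini-Hochberg adjustment over all tested genes in each of 10 comparisons. SE is the log2 change divided by the square root of F. The test was also run on simulated counts, with 100 genes changed by 1.5 and 100 by 2 on the log2 scale. These counts were drawn from the mean counts of wild-type on N6 medium and the dispersion trend of the fit. Changed genes were taken only from those above a minimum mean level, and no other gene differed between groups. The rates therefore need not hold for the real libraries or for members with few counts. For the wild-type at 7 d the test recovered 64% and 77% of the changed genes, with 2 false calls among 27783 genes. For the difference between the genotypes at 7 d it recovered 43% and 59%, with 5 false calls. A gene that was not called may therefore still have changed. Alternatives were RLE factors, library totals, DESeq2 1.42.0, no filter, counts divided by 4, limma 3.58.1 on log2(FPKM + 0.1), a replicate block, and leaving out each library. Tables and plots were made with Python 3.11.15, NumPy 2.4.6, pandas 2.3.3 and Matplotlib 3.10.9.

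The members and lists were chosen with earlier results of these data known. Named were oil body genes with a group mean of at least 10 CPM, LEA genes with at least 100 CPM, and per comparison the 4 called members of each list with the largest and the 4 with the smallest change, 35 in all. Members named to account for the whole list, and calls that 1 library decided, were added after their values were seen. In the companion lists, the 3 regulators, the leading called genes, OsDGAT and some marker genes were named. The floor was 12 counts per library, that is 3 fragments, and covers counting error only. Depth was 50341636 to 70796624 counts per library, of which members with few counts have the least precision.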

Additional observations from a re-analysis of the deposited data

Results flagged for a closer look

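These results were listed because the change on CIM differed between wild-type and 35Spro:OsMIR393b by the test of the difference itself, the wild-type change minus the change in 35Spro:OsMIR393b in edgeR. The difference was called for 1 LEA gene and 1 oil body gene at 2 d, for 20 LEA genes and 6 oil body genes at 5 d, and for 22 LEA genes and 8 oil body genes at 7 d. By 7 d such calls were common over all tested genes too. Among all tested genes, positive calls made up 0.252% at 2 d, 6.5% at 5 d and 16.1% at 7 d. Negative calls made up 0.283%, 11.8% and 15.5% on these days.

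Among the oil body genes, the log2 difference at 7 d was 8.74 for OsOLE4, 8.37 for OLE18, 8.01 for OLE16, 5.50 for Os01g0643900, 4.72 for Os05g0576700 and 3.82 for Os06g0473800. For the caleosins it was 3.32 for Os03g0222600 and 1.18 for Os06g0254700.

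Only the LEA genes taken by the naming rule above are listed, so OsLEA15, OsLEA20, OsEnS-4 and RAB16D, also positive, are left out. Among those listed, it was 7.95 for Os09g0482550, 7.94 for Os09g0482300, 7.57 for LEA17, 7.46 for OsLEA25, 7.36 for OsLEA22, 7.25 for OsLEA4 and 7.24 for RAB16B. It was 6.69 for OsLEA16, 6.55 for OsLEA14, 6.17 for OsLEA2, 6.02 for OsLEA18, 5.05 for RAB16A, 4.27 for OsLEA3-1, 4.03 for OsLEA1 and 2.66 for OsLEA30. It was negative for OsLEA24 (-4.47), LEA8 (-2.58) and Os05g0182000 (-1.06).

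The call of Os01g0643900 was lost without any one of 17 libraries (4.93 to 5.78, edgeR adjusted p 0.051 to 0.094), and that of Os05g0182000 without wild-type N6 replicate 1 or 35Spro:OsMIR393b 7 d replicate 3 (-0.96 to -0.92).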

How the results depend on the processing

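Over the 20 counts of called LEA and oil body genes, 131 of 140 values under the 7 other settings were within 1.5 times the reported count, and no named gene changed direction under any of them. DESeq2 called 1 LEA gene in 35Spro:OsMIR393b at 2 d (reported 0) and 2 oil body genes on N6 medium (reported 1). It called 6 LEA genes for the difference in change between the genotypes at 2 d (reported 1). With limma, 12 LEA genes were called in 35Spro:OsMIR393b at 5 d (reported 7). For that 2 d difference, library totals gave 0 LEA genes, counts divided by 4 gave 3, limma gave 2 and the replicate block gave 0, and the block gave 0 oil body genes (reported 1). The cause was not tested. Of single named genes, 1084 of 1106 values kept their side of the threshold and 22 lost it.

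Libraries of the same replicate number were no closer than others: the mean correlation of their deviations was -0.008 for the same number and 0.004 for other numbers, and 3 of 84 pairs were over 0.1. The replicate block therefore rests on the number alone, and it moved no other count by over 1.5 times. With library totals, the median of all genes moved to 0.25 and 0.29 (wild-type, 5 and 7 d), -0.27 (35Spro:OsMIR393b, 7 d) and 0.33 and 0.60 (difference, 5 and 7 d). At 7 d library totals called 8 oil body genes higher in the wild-type and 4 lower in 35Spro:OsMIR393b, the reported numbers. They called 22 LEA genes higher and 2 lower in the wild-type (reported 20 and 3), and 4 higher and 15 lower in 35Spro:OsMIR393b (reported 4 and 15).

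With 1 library left out, the number of called LEA genes was 8 to 13, 20 to 23 and 22 to 24 in the wild-type at 2, 5 and 7 d, 0, 5 to 8 and 14 to 23 in 35Spro:OsMIR393b, 2 to 10 on N6 medium, and 0 to 3, 17 to 21 and 21 to 28 for the difference. For oil body genes it was 3 to 4, 7 to 8 and 7 to 8, then 0, 1 and 3 to 5, then 0 to 2, and 0 to 1, 4 to 6 and 7 to 8. The matching shares over all genes are not given here. At 12 counts per library or fewer, changes of members such as OsLEA11 could not be measured at this depth.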
